A study of Mus musculus with 9 samples.

Results

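The genes described here mark a mesenchymal and Schwann-like state of neuroblastoma, a childhood tumor of the sympathetic nervous system. They were taken as a list of 38 symbols, looked up by name in a table of 54429 gene symbols, and 36 of them had enough counts to be tested. The list held transcription factors, Notch and Hippo-YAP pathway genes, receptors, cadherins, matrix and stromal surface genes, cytoskeletal and calcium-binding genes, and markers of Schwann and neural crest cells.

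Neuroblastoma cells are known to occur in an adrenergic state, held by neuronal transcription factors such as HAND2 and GATA3, and in a mesenchymal state with a neural crest-like program. PRRX1, Notch and YAP-TEAD signaling are known to promote the mesenchymal state, which is often less sensitive to chemotherapy, and cells can pass between the states. Many mesenchymal-state genes are also strongly expressed by fibroblasts, pericytes and macrophages, so a whole-tumor library cannot assign their RNA to one cell type.

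RNA-seq was performed on 9 whole tumors grown from NB9464, a mouse neuroblastoma line with amplified MYCN, placed under the skin of wild-type C57BL/6 mice. Treatment began at a tumor volume of 250 mm3, and each group held 3 tumors. The first group received vehicle, the second R788 at 50 mg/kg with anti-PDL1 antibody (R788 + anti-PDL1), and the third the same agents with 10 Gy of radiation (Rad + R788 + anti-PDL1, called irradiated tumors here). R788 (fostamatinib) is an oral prodrug that inhibits the kinase Syk, and anti-PDL1 blocks the checkpoint ligand PDL1. The series text lists 4 doses, from day 28 to day 37, without saying which agents they cover. R788, anti-PDL1 and radiation given alone were not analysed here, so their effects cannot be told apart. The tumors came from a single line at a subcutaneous site, not from the adrenal gland, and they held host stroma and immune cells. The extraction text names macrophages as the RNA source, whereas tissue, title and source labels all name whole tumor. No label tied a replicate number to a shared day or litter, and p-values measure the spread between these tumors.

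Total counts ranged from 18276683 to 23397886 per library, and 3 counts, the most that a count of 0 allows, corresponded to 0.114 to 0.221 CPM (counts scaled to a common sequencing depth with TMM factors), a limit that covers counting error only. Irradiated replicate 1 stood apart, with a TMM factor of 0.743 against 0.975 to 1.12 elsewhere and 1.97% of counts from mitochondrial genes against 3.48 to 5.71%. It held the lowest value of all 9 libraries for 12 of the 36 tested members and the highest for 7. In 2 groups, replicate 3 lay between the other 2 tumors for most genes that separated them. Among genes with at least 300 counts and a difference of at least 4-fold between replicates 1 and 2, vehicle replicate 3 lay in between for 90 of 99, and R788 + anti-PDL1 replicate 3 for 213 of 220, against 15.0 to 62.6% for the other 7 libraries in the same kind of comparison. Whether these libraries share RNA was not tested, so n = 3 in both groups may overstate the number of independent tumors. Without those 2 libraries edgeR called 0 members in all 3 comparisons, and 0% of all tested genes. Genes of the adrenergic state were expressed only in part. Hand2 was at 324 to 866 CPM and Mycn at 93.2 to 250.0 CPM over the 9 libraries, whereas Th, which encodes the enzyme that limits catecholamine synthesis, had 0 counts in every library.

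The first question was whether mesenchymal-state genes were higher in treated tumors as a group. Their differences had both signs. Against vehicle, 17 of the 36 tested members had a positive log2 fold change in both treated groups, 9 were negative in both and 10 differed in sign, with the same 3 vehicle tumors serving both comparisons. Zeb2 was the only member that passed the test, and it rose in R788 + anti-PDL1 tumors. A gene was called when edgeR's quasi-likelihood test, fitted over all 15931 tested genes, gave a Benjamini-Hochberg adjusted p under 0.05.

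With R788 + anti-PDL1, set against vehicle, 1 of 36 members was called, where 0.678% of all tested genes were called. At a raw p under 0.05 there were 14 members, 10 higher and 4 lower, where 11.7% of all genes lay under that level. The 3 treated tumors all lay above the 3 vehicle tumors for 11 members and all below for 4, where 13.6% and 16.6% of all genes did so. The median log2 fold change of the members was 0.28, beside -0.02 for all genes. That median was 0.10 without R788 + anti-PDL1 replicate 2, and DESeq2, the tool of the study, called 5 members (Cd44, Egfr, Maml2, Twist1 and Zeb2, all higher) among 726 genes.

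In irradiated tumors against vehicle, edgeR called 0 of 36 members, where 0.0439% of all genes were called. Raw p-values under 0.05 were given to 13 members, 11 higher and 2 lower, beside 13.2% of all genes. Groups did not overlap for 12 members on the higher side and 3 on the lower side, beside 9.26% and 11.2% of all genes. The members' median log2 fold change was 0.27, beside 0.05 for all genes, and it became 0.67 without vehicle replicate 1. DESeq2 called 8 members (Egfr, Fap, S100a4, S100a6, Twist1, Vim and Zeb2 higher, Prrx1 lower) among 553 genes, and limma-voom called 0. Without irradiated replicate 1, edgeR called 4 members (Egfr, S100a4, Vim and Zeb2) among 57 genes.

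Between the 2 treated groups, as many members had a positive as a negative log2 fold change, 18 each. edgeR called 0 of 36 members (0.00628% of all genes), and 11 members had a raw p under 0.05, 8 higher and 3 lower in irradiated tumors, beside 18.4% of all genes. Irradiated tumors lay wholly above R788 + anti-PDL1 tumors for 9 members and wholly below for 5, beside 14.3% and 13.1% of all genes. The median log2 fold change was 0.00 for the members and 0.04 for all genes. DESeq2 called 6 members (Anxa2, Pdpn, S100a4 and Vim higher in irradiated tumors, Prrx1 and Runx2 lower) among 646 genes, and limma-voom called 0.

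**Figure D1:**
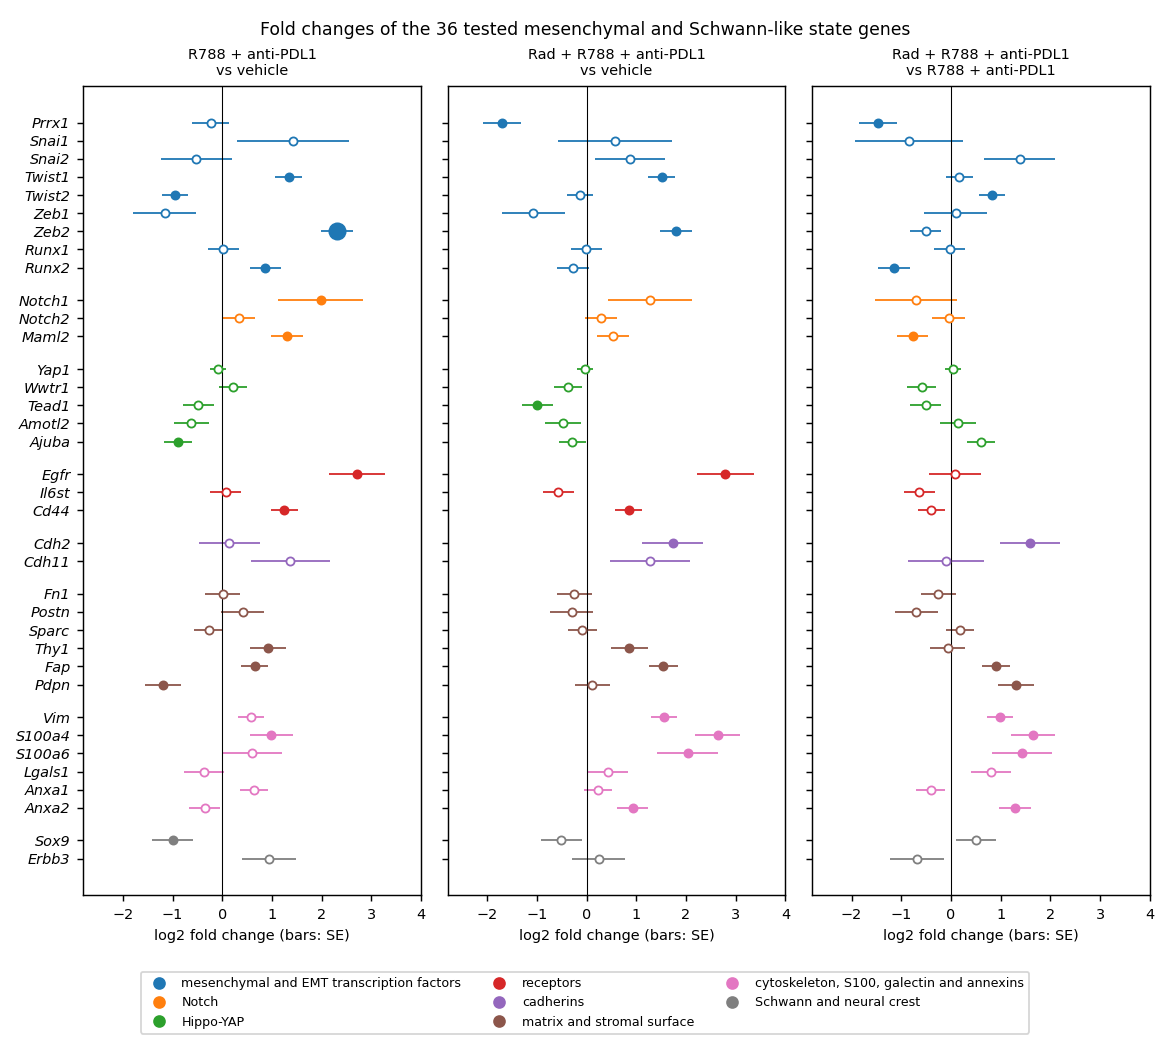
Log2 fold change of the 36 tested members in each of the 3 comparisons, grouped by role, with bars for the SE from edgeR; filled points have a raw p under 0.05, and the large point is the single call, Zeb2 in R788 + anti-PDL1 tumors at 2.31. Members lie on both sides of 0, and the points of the cytoskeletal group are all above 0 in irradiated tumors against vehicle.

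Transcription factors of the mesenchymal program did not share a direction. Against vehicle, their median log2 fold change was 0.02 with R788 + anti-PDL1 and -0.01 with added radiation, with 5 of 9 and 4 of 9 above 0. Zeb2, Twist1 and Runx2 were on the high side in R788 + anti-PDL1 tumors, and Twist2 on the low side. Prrx1 was lowest in irradiated tumors.

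Zeb2 (ENSMUSG00000026872.17, chromosome 2, 44983632 to 45117395, minus strand) encodes a zinc-finger repressor of epithelial genes that also acts in neural crest and in macrophages. Its level was 9.38, 8.93 and 8.76 CPM in vehicle tumors, 45.1, 44.3 and 44.9 in R788 + anti-PDL1 tumors and 25.2, 19.7 and 49.5 in irradiated tumors. The 3 R788 + anti-PDL1 tumors lay within 1 CPM of each other and every treated tumor lay above every vehicle tumor. Zeb2 rose by 2.31 ± 0.32 on the log2 scale in R788 + anti-PDL1 tumors (adjusted p = 0.0383 in edgeR's quasi-likelihood test). In irradiated tumors the log2 fold change was 1.80 ± 0.32 (adjusted p = 0.0921), and 1.98 without irradiated replicate 1 (adjusted p = 0.0497). The call in R788 + anti-PDL1 tumors was lost when any 1 of the 6 libraries was left out, with adjusted p from 0.0573 to 0.216 and a log2 fold change from 2.29 to 2.36, and it was lost without replicates 3 of vehicle and R788 + anti-PDL1 (2.29, adjusted p = 0.769). Some exons of Zeb2 overlap those of Zeb2os on the other strand, and the strandedness of the counting was not stated, so counts of the pair may be mixed.

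Twist1 (ENSMUSG00000035799.6, chromosome 12, 33957671 to 33959829, plus strand), a basic helix-loop-helix factor of cranial neural crest and of MYCN-driven neuroblastoma, was at 41.3, 19.2 and 26.4 CPM in vehicle tumors, 79.4, 61.9 and 78.1 in R788 + anti-PDL1 tumors and 83.1, 88.5 and 75.4 in irradiated tumors. All 6 treated tumors lay above the highest vehicle tumor. The log2 fold changes were 1.34 ± 0.27 with R788 + anti-PDL1 (adjusted p = 0.0747) and 1.51 ± 0.27 with added radiation (adjusted p = 0.0963), each against the same vehicle tumors, and neither passed the threshold. Both passed when vehicle replicate 1, the highest of its group, was left out, at 1.70 (adjusted p = 0.035) and 1.86 (adjusted p = 0.04). Twist2, its paralog in dermal and mesenchymal cells, was at 59.5, 37.0 and 42.3 CPM in vehicle tumors, 21.6, 28.3 and 22.0 in R788 + anti-PDL1 tumors and 54.7, 35.6 and 36.9 in irradiated tumors. It was low in R788 + anti-PDL1 tumors, which did not overlap with either other group. The log2 fold change was -0.95 ± 0.26 against vehicle (adjusted p = 0.155) and 0.82 ± 0.26 in irradiated against R788 + anti-PDL1 tumors (adjusted p = 0.222).

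Prrx1 (ENSMUSG00000026586.16, chromosome 1, 163245119 to 163313710, minus strand), a homeobox factor that can drive neuroblastoma cells into the mesenchymal state, was measured at 94.0, 221 and 196 CPM in vehicle tumors, 193, 90.5 and 153 in R788 + anti-PDL1 tumors and 38.7, 59.8 and 58.5 in irradiated tumors. Irradiated tumors lay below all others, and the other 2 groups overlapped. The difference in irradiated tumors was -1.70 ± 0.38 against vehicle (adjusted p = 0.155) and -1.47 ± 0.38 against R788 + anti-PDL1 tumors (adjusted p = 0.193). Runx2, the osteoblast factor also expressed by cancer cells, was at 12.6, 19.9 and 20.8 CPM in vehicle tumors, 42.7, 21.02 and 33.6 in R788 + anti-PDL1 tumors and 11.3, 17.2 and 15.4 in irradiated tumors. Every R788 + anti-PDL1 tumor exceeded every other tumor, if only just for replicate 2. Runx2 differed by 0.87 ± 0.32 from vehicle (adjusted p = 0.311) and, in irradiated tumors, by -1.15 ± 0.32 from R788 + anti-PDL1 tumors (adjusted p = 0.213). Runx2 shares exonic bases with Runx2os1 on the other strand.

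Of the remaining factors, Zeb1, the paralog of Zeb2, was at 97.2 to 394 CPM in vehicle, 98.3 to 179 in R788 + anti-PDL1 and 44.0 to 247 in irradiated tumors, and the groups overlapped. Runx1, a factor of blood and mesenchymal cells, was at 11.5 to 23.3 CPM over all 9 tumors. The zinc-finger repressors Snai1 and Snai2 were scarce, at 0 to 0.881 and 0.308 to 7.76 CPM. None of these 4 had a raw p under 0.05 in any comparison.

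**Figure D2:**
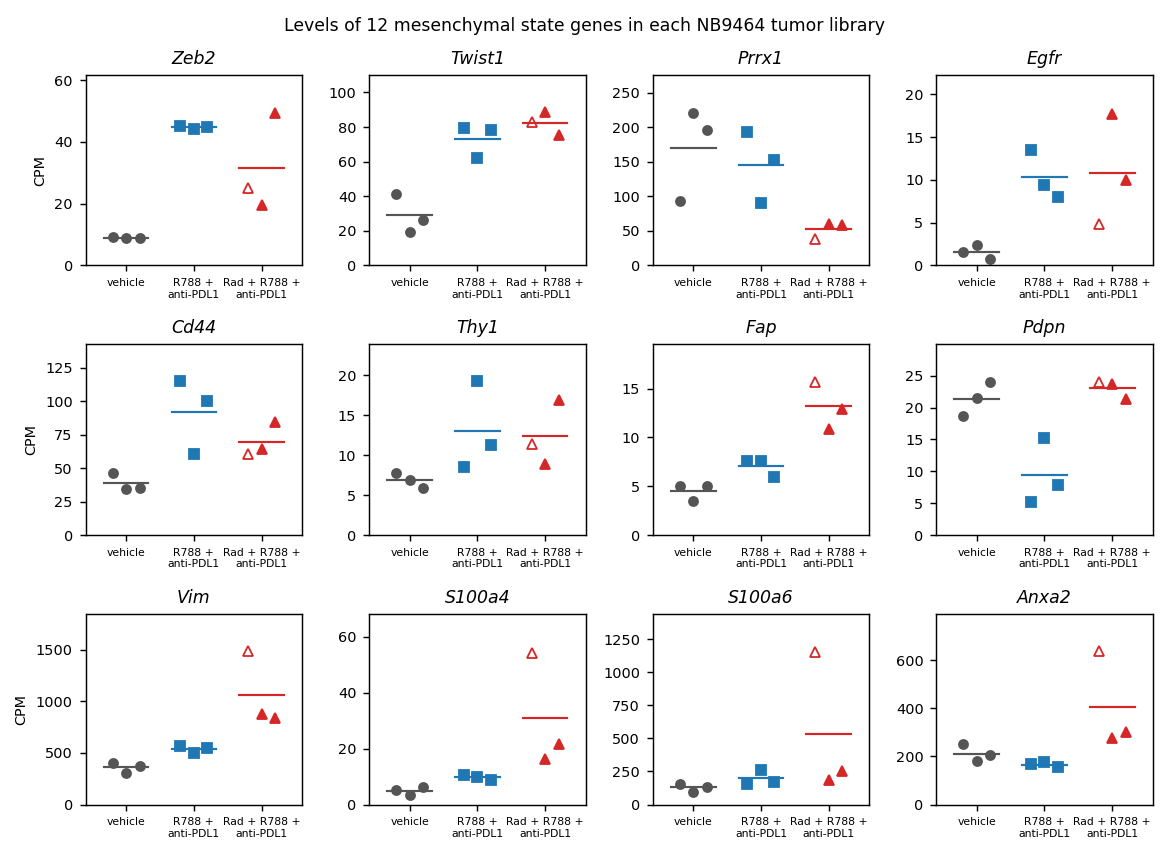
CPM of 12 members in each of the 9 tumors on linear axes from 0, with a point per library and a bar at the group mean; the open triangle is irradiated replicate 1. Zeb2 and Twist1 are higher in every treated tumor than in any vehicle tumor. The irradiated replicate 1 point is the highest for Fap, Vim, S100a4, S100a6 and Anxa2.

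The upstream sequences of members were searched for 3 short motifs on both strands, since Zeb and Snail proteins bind E-boxes and YAP acts through TEAD proteins. RefSeq promoter windows (GRCm38.p6, 250 bases before each transcript start) were used for 26 of the 38 members, giving 33 windows. Zeb1 and Cdh2 were left out of the search, whether or not they have a window. Thy1, Sox10, Snai2, Sox9, Fap, Fn1, Tead1, Lgals1, Cdh11 and Erbb3 were not matched. The shares of members below cover none of these genes. The TEAD letters GGAATG or CATTCC were present in 9 of 26 members (34.6%), namely Ajuba, Amotl2, Anxa1, Notch1, Prrx1, Runx1, Wwtr1, Yap1 and Zeb2, and in 12.6% of the 32851 promoters of the table. The TATA box letters TATAAA or TTTATA were present in 6 members (23.1%), which were Anxa1, Anxa2, Postn, S100a4, Twist1 and Vim, and in 12.4% of all promoters. The E-box letters CAGGTG or CACCTG were present in Runx1 and Snai1, 7.69% of members, and in 17.2% of all promoters. Members with several windows had more chances of a match, and a match describes letters only. The windows of the called member Zeb2, of Twist1, and of Vim and S100a4, which had the lowest raw p-values in irradiated tumors against vehicle, are shown with the matched letters in capitals. That of Zeb2 (chr2:45110278-45110527, minus strand) is 1 of 4 windows of the gene, lies inside the GENCODE gene model, and holds CATTCC starting 157 bases before the transcript start. In Twist1 (chr12:33957421-33957670, plus strand) TATAAA begins 126 bases before the start, in Vim (chr2:13574061-13574310, plus strand) 32 bases before it, and in S100a4 (chr3:90603520-90603769, plus strand) 31 bases before it. The Vim window also lies inside the GENCODE gene model.
Zeb2: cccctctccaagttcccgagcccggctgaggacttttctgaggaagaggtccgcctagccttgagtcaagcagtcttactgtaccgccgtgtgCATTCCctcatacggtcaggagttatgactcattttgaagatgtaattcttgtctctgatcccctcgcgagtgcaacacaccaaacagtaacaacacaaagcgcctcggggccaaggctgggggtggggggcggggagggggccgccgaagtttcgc
Twist1: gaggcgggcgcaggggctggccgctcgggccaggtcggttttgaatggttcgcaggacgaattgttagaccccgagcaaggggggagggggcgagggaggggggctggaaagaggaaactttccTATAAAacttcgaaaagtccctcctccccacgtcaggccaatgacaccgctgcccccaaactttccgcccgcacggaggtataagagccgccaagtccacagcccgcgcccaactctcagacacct
Vim: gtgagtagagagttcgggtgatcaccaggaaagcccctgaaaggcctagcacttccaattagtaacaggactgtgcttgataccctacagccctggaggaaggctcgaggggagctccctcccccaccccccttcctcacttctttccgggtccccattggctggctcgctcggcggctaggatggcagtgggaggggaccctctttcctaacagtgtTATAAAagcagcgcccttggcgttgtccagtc
S100a4: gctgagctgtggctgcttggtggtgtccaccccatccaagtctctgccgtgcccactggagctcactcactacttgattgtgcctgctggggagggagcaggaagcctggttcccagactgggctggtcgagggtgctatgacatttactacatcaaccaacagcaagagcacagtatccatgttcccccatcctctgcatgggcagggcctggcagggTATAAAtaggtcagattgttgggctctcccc

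The 3 Notch members had positive log2 fold changes against vehicle in both treated groups, with medians of 1.30 and 0.53, and none was called. Single tumors differed. The median difference from the vehicle mean was 0, 1.54 and 1.19 in R788 + anti-PDL1 tumors and -0.58, 0.59 and 0.94 in irradiated tumors. Maml2, a coactivator that joins the Notch transcription complex, was at 7.56, 5.74 and 4.71 CPM in vehicle tumors, 11.7, 17.3 and 15.3 in R788 + anti-PDL1 tumors and 6.33, 8.21 and 11.4 in irradiated tumors. R788 + anti-PDL1 tumors did not overlap with the other groups, by a margin of under 1 CPM against irradiated tumors. Its log2 fold change was 1.30 ± 0.32 against vehicle (adjusted p = 0.11) and -0.77 ± 0.31 between irradiated and R788 + anti-PDL1 tumors (adjusted p = 0.251). Notch2, the most abundant of these receptors, was at 68.9, 94.7 and 84.7 CPM in vehicle tumors, 80.3, 138 and 94.5 in R788 + anti-PDL1 tumors and 54.9, 123 and 124 in irradiated tumors, and the groups overlapped throughout. Notch1 reached 65.5 CPM in R788 + anti-PDL1 replicate 2 against 6.13 to 8.94 CPM in vehicle, while replicate 1 of the same treatment had 7.58 CPM. Its raw p in edgeR was 0.046 for R788 + anti-PDL1 against vehicle, but the groups overlapped. In irradiated tumors Notch1 was at 3.24, 31.8 and 20.4 CPM. Exons of Maml2 and Notch2 overlap other genes on their own strand, and those of Notch1 on the other strand. Among 13 other Notch pathway genes, all tested, edgeR called 0 in each comparison, with 1, 3 and 1 at a raw p under 0.05, and the medians were 0.06, -0.15 and -0.15. Such triplets give R788 + anti-PDL1 against vehicle, irradiated against vehicle and irradiated against R788 + anti-PDL1 tumors, in that order. The most abundant were Rbpj, the DNA-binding partner of Notch, Notch3 and Maml1.

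Hippo-YAP members tended to the low side, with medians of -0.48 and -0.37 against vehicle and 0 calls in edgeR. The coactivator gene Yap1 stayed at 149 to 179.8 CPM in all 9 tumors. Tead1, which encodes the DNA-binding partner of YAP, was at 216, 381 and 357 CPM in vehicle tumors, 232, 229.7 and 222 in R788 + anti-PDL1 tumors and 95.0, 209 and 176 in irradiated tumors. Irradiated tumors lay below all vehicle tumors, and replicate 1 was the lowest of all. The log2 fold change in irradiated tumors was -0.99 ± 0.31 against vehicle (adjusted p = 0.276), and -0.70 without replicate 1. Ajuba, a LIM protein that restrains the Hippo kinases, was at 59.5, 36.9 and 40.2 CPM in vehicle tumors, 19.6, 32.1 and 21.7 in R788 + anti-PDL1 tumors and 45.4, 35.3 and 30.9 in irradiated tumors, so that R788 + anti-PDL1 tumors lay below vehicle and the irradiated tumors overlapped both. It differed by -0.89 ± 0.28 between R788 + anti-PDL1 and vehicle (adjusted p = 0.22). Wwtr1, which encodes TAZ, the paralog of YAP, ranged from 39.0 to 112 CPM, and Amotl2, a junction protein that binds YAP, from 18.8 to 53.8 CPM. Neither had a raw p under 0.05 in any comparison.

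Other genes of this pathway, 9 targets and partners of YAP and TEAD of which 8 were tested, had medians of 0.15, -0.17 and -0.08. Cyr61, a secreted matricellular YAP target, was at 35.5, 40.3 and 45.6 CPM in vehicle tumors, 16.4, 13.7 and 13.9 in R788 + anti-PDL1 tumors and 20.4, 20.3 and 16.4 in irradiated tumors. All vehicle tumors lay well above all treated tumors. Cyr61 fell by 1.47 on the log2 scale in R788 + anti-PDL1 tumors (SE 0.20, adjusted p = 0.0375). The call was lost when either replicate 2 or replicate 3 of the vehicle group was left out, when replicate 1 or 3 of the R788 + anti-PDL1 group was, without both replicates 3 and with the replicate number as a block, since edgeR then called 0 of all genes. Cyr61 was the only gene of the list that edgeR called in any comparison, and in irradiated tumors the value was -1.09 ± 0.20 (adjusted p = 0.0961). Tead2, Axl and Amotl1 were the most abundant of the list.

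The receptors held some of the largest differences among the members. Egfr (ENSMUSG00000020122.16, chromosome 11, 16752203 to 16918158, plus strand), the epidermal growth factor receptor, was at 1.54, 2.42 and 0.712 CPM in vehicle tumors, 13.5, 9.38 and 8.02 in R788 + anti-PDL1 tumors and 4.86, 17.7 and 9.94 in irradiated tumors. All treated tumors were above all vehicle tumors, although Egfr was scarce everywhere. Egfr differed from vehicle by 2.71 ± 0.57 in R788 + anti-PDL1 tumors (adjusted p = 0.0793) and 2.79 ± 0.57 in irradiated tumors (adjusted p = 0.136). In the fit without irradiated replicate 1 the second passed the threshold, at 3.16 (adjusted p = 0.0397). Cd44 (ENSMUSG00000005087.17, chromosome 2, 102811141 to 102901665, minus strand), the hyaluronan receptor of mesenchymal and immune cells, was at 46.5, 34.1 and 35.4 CPM in vehicle tumors, 115, 60.6 and 100.4 in R788 + anti-PDL1 tumors and 60.6, 64.2 and 84.5 in irradiated tumors. Treated tumors again lay above vehicle without overlap, with R788 + anti-PDL1 replicates 1 and 3 the highest. Cd44 differed from vehicle by 1.25 ± 0.27 (adjusted p = 0.0844) and 0.85 ± 0.27 (adjusted p = 0.277). Il6st, which encodes the gp130 receptor chain of the interleukin-6 family, was at 141, 179.5 and 168 CPM in vehicle tumors, 202, 135 and 177 in R788 + anti-PDL1 tumors and 58.6, 135 and 136 in irradiated tumors. Irradiated tumors lay just below vehicle, replicate 1 far below, and no raw p was under 0.05.

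Of the 2 cadherins, Cdh2 (N-cadherin, the neural and mesenchymal cadherin) was at 2.54, 0.404 and 1.48 CPM in vehicle tumors, 1.498, 1.68 and 1.68 in R788 + anti-PDL1 tumors and 2.80, 6.84 and 4.97 in irradiated tumors. The irradiated tumors were above all others, although the lowest irradiated tumor exceeded the highest vehicle tumor by under 1 CPM. The log2 fold change in irradiated tumors was 1.73 ± 0.62 against vehicle (adjusted p = 0.316) and 1.59 ± 0.61 against R788 + anti-PDL1 tumors (adjusted p = 0.241). Cdh11, a cadherin of fibroblasts and mesenchyme, stayed at 0.329 to 2.50 CPM, with overlapping groups.

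Genes of matrix and stromal surface had medians close to 0, at 0.21 and 0.01 against vehicle and 0.06 between treated groups, and edgeR called none of the 6. Fap (ENSMUSG00000000392.17, chromosome 2, 62500943 to 62574075, minus strand), the fibroblast activation protein, was at 5.02, 3.50 and 5.04 CPM in vehicle tumors, 7.62, 7.63 and 5.94 in R788 + anti-PDL1 tumors and 15.7, 10.9 and 12.9 in irradiated tumors. The 3 groups did not overlap, with vehicle lowest and irradiated tumors highest. Fap differed from vehicle by 0.65 ± 0.28 in R788 + anti-PDL1 tumors (adjusted p = 0.421) and by 1.54 ± 0.29 in irradiated tumors (adjusted p = 0.098), and the treated groups differed by 0.90 ± 0.28 (adjusted p = 0.222). Thy1, a surface glycoprotein of fibroblasts, T cells and neurons, was at 7.78, 6.86 and 5.91 CPM in vehicle tumors, 8.50, 19.3 and 11.2 in R788 + anti-PDL1 tumors and 11.4, 8.92 and 16.9 in irradiated tumors. Every treated tumor was above every vehicle tumor, with R788 + anti-PDL1 replicate 2 the highest. Thy1 differed from vehicle by 0.92 ± 0.37 in R788 + anti-PDL1 tumors (adjusted p = 0.362) and 0.86 ± 0.37 in irradiated tumors (adjusted p = 0.365). Without R788 + anti-PDL1 replicate 2 the first was 0.52.

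Pdpn, which encodes podoplanin, a glycoprotein of lymphatic endothelium and activated fibroblasts, was at 18.6, 21.4 and 24.0 CPM in vehicle tumors, 5.15, 15.2 and 7.78 in R788 + anti-PDL1 tumors and 24.0, 23.8 and 21.4 in irradiated tumors. It was low in R788 + anti-PDL1 tumors, and in replicate 2 less so than in the others. The difference was -1.19 ± 0.36 against vehicle (adjusted p = 0.205) and 1.30 ± 0.36 in irradiated against R788 + anti-PDL1 tumors (adjusted p = 0.209). Sparc, a collagen-binding matricellular protein and the most abundant of the role per length, was at 755, 441 and 498 CPM in vehicle tumors, 393, 577 and 430.4 in R788 + anti-PDL1 tumors and 383, 608 and 598 in irradiated tumors, with overlapping groups. Fn1 (fibronectin) ranged from 416 to 1146 CPM and Postn (periostin) from 34.0 to 139.6 CPM, the lowest value of both being that of irradiated replicate 1. All 3 had raw p-values above 0.05 in every comparison.

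Of the cytoskeletal, S100, galectin and annexin genes, all 6 had a positive log2 fold change in irradiated tumors against vehicle (median 1.25), and 5 of 6, all but Anxa1, against R788 + anti-PDL1 tumors (median 1.14). Irradiated replicate 1 stood apart from the other irradiated tumors in these genes. On the log2 scale the median difference of the 6 genes from the vehicle mean was 1.82 in that tumor, 0.48 and 0.76 in the other 2 irradiated tumors, and 0.45 to 0.52 in R788 + anti-PDL1 tumors. Their summed level was 1680 to 4072 CPM in irradiated tumors, 822 to 1344 CPM in vehicle and 1189 to 1236 CPM in R788 + anti-PDL1 tumors. The highest sum was that of irradiated replicate 1, whose composition stood apart, and edgeR called none of the 6 with all libraries in the fit.

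Vim (ENSMUSG00000026728.9, chromosome 2, 13573927 to 13582826, plus strand) encodes vimentin, the intermediate filament of mesenchymal cells. Its level was 403, 308 and 373 CPM in vehicle tumors, 568, 499 and 543 in R788 + anti-PDL1 tumors and 1482, 879 and 834 in irradiated tumors. The 3 groups were separate, with vehicle lowest and irradiated tumors highest. Vim differed by 1.56 ± 0.26 between irradiated tumors and vehicle (adjusted p = 0.0912), by 0.99 ± 0.26 between irradiated and R788 + anti-PDL1 tumors (adjusted p = 0.203) and by 0.57 ± 0.26 between R788 + anti-PDL1 tumors and vehicle (adjusted p = 0.438). Without irradiated replicate 1 the difference from vehicle was 1.27 and passed the threshold (adjusted p = 0.0122), and that from R788 + anti-PDL1 tumors was 0.68.

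S100a4 (ENSMUSG00000001020.8, chromosome 3, 90603771 to 90606045, plus strand), a calcium-binding protein of fibroblasts, macrophages and motile tumor cells, was at 5.13, 3.45 and 6.19 CPM in vehicle tumors, 10.7, 9.77 and 8.92 in R788 + anti-PDL1 tumors and 54.3, 16.4 and 21.8 in irradiated tumors. The groups were ordered as for Vim, again without overlap. Its log2 fold change in irradiated tumors was 2.64 ± 0.45 against vehicle (adjusted p = 0.0912) and 1.65 ± 0.44 against R788 + anti-PDL1 tumors (adjusted p = 0.203). R788 + anti-PDL1 tumors differed from vehicle by 0.99 ± 0.44 (adjusted p = 0.421). Without irradiated replicate 1 the first passed the threshold at 1.99 (adjusted p = 0.0362) and the second was 0.97. The symbol shares exonic bases with Gm42674 on its own strand.

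S100a6 (calcyclin), another calcium-binding S100 protein, was at 157, 97.8 and 135 CPM in vehicle tumors, 152, 265 and 173 in R788 + anti-PDL1 tumors and 1149, 189 and 254 in irradiated tumors. Most of the irradiated mean came from replicate 1, and the other 2 irradiated tumors overlapped with R788 + anti-PDL1. The log2 fold change against vehicle was 2.03 ± 0.62 (adjusted p = 0.27), and 0.80 without that library. Anxa2, a calcium-dependent membrane-binding protein, was at 250.2, 179 and 208 CPM in vehicle tumors, 167, 176 and 157 in R788 + anti-PDL1 tumors and 638, 276 and 303 in irradiated tumors. Irradiated tumors lay above all others, with replicate 1 far above. Its difference was 0.93 ± 0.31 against vehicle (adjusted p = 0.298) and 1.28 ± 0.32 against R788 + anti-PDL1 tumors (adjusted p = 0.184), and without replicate 1 these were 0.48 and 0.81. Lgals1 (galectin-1), the member with the most counts per length, was at 479, 207 and 277 CPM in vehicle tumors, 274, 216 and 254 in R788 + anti-PDL1 tumors and 701, 284 and 313 in irradiated tumors. Its vehicle and irradiated groups overlapped. Anxa1, a relative of Anxa2 with anti-inflammatory action, ranged from 26.2 to 64.0 CPM. Neither of the last 2 had a raw p under 0.05 in any comparison.

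Schwann and neural crest markers were scarce, and edgeR called none of them in any comparison. Sox10, the defining transcription factor of Schwann and neural crest cells, had between 0 and 4 counts per library and S100b, a glial calcium-binding protein, between 0 and 11, so neither was tested. Erbb3, the neuregulin receptor of Schwann cells, was at 3.23 to 12.6 CPM in vehicle, 10.5 to 14.8 in R788 + anti-PDL1 and 3.83 to 10.6 in irradiated tumors, with overlapping groups. Sox9, a factor of neural crest and cartilage, was the most abundant of the role, at 13.2, 31.9 and 25.6 CPM in vehicle tumors, 16.1, 5.68 and 13.5 in R788 + anti-PDL1 tumors and 15.2, 18.4 and 16.2 in irradiated tumors. The lowest value was that of R788 + anti-PDL1 replicate 2, and all groups overlapped. Sox9 differed from vehicle by -1.0 ± 0.42 with R788 + anti-PDL1 (adjusted p = 0.386). Of 10 other Schwann cell genes 6 were tested. Cdh19 and Foxd3 had 0 counts in every library. The most abundant were Pmp22, a myelin protein also made by fibroblasts, Ngfr and Egr2. edgeR called 0 of the 6 in each comparison, with 2 at a raw p under 0.05 in each, and the medians were 0.08, -0.09 and -0.30.

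On the scale of CPM per kb of exon, which allows levels of different genes to be set side by side, the mean over all 9 tumors was highest for Lgals1 (369.7) and S100a6 (209), followed by Vim (138), Sparc (137), Fn1 (80.4), Anxa2 (70.1) and Twist1 (37.8). Vim and Sparc did not differ beyond their spread over tumors. Lowest were Cdh11 (0.112) and Sox10 (0.0170). Among the transcription factors, Twist1 stood above Zeb1 (17.7), Twist2 (11.8) and Prrx1 (11.1), with Runx2 (2.45), Snai2 (2.10), Runx1 (1.55), Zeb2 (1.43) and Snai1 (0.306) below them. The called member Zeb2 was thus one of the scarcer factors, and its order among them rests on a long exon model.

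**Figure D3:**
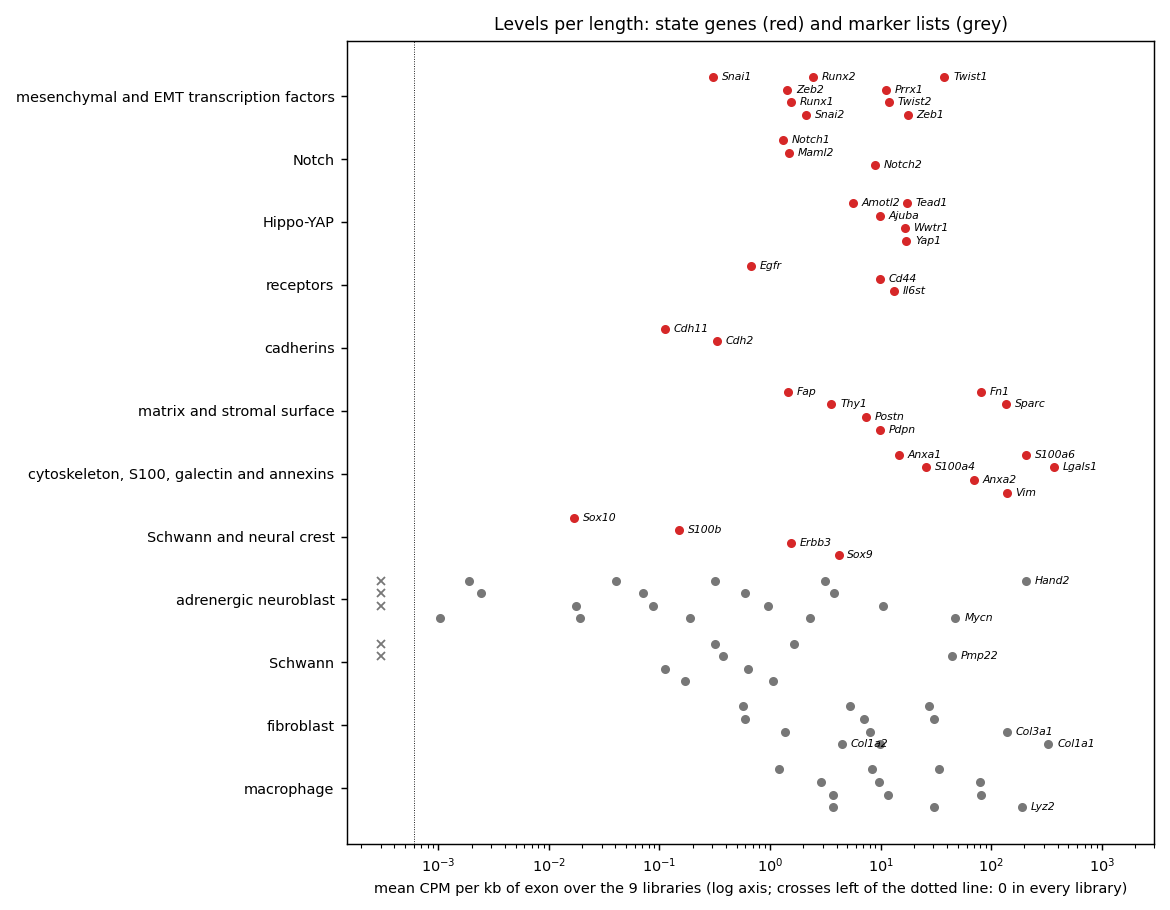
Mean CPM per kb of exon over the 9 tumors on a log axis, with a point per gene and a line of points per role for the 38 members (red) and for 4 marker lists (grey); crosses mark genes with 0 counts in every library. The members run from Lgals1 at 369.7 to Sox10 at 0.0170, and Hand2 and Mycn lie far to the right of most other adrenergic genes.

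The second question was whether fibroblast RNA moved with the members. A list of 12 fibroblast genes was tested in full, with Col1a1, Col3a1 and Fbln1, genes of fibrillar collagens and of matrix, the most abundant. edgeR called 0 of 12 in every comparison, with 4, 1 and 3 at a raw p under 0.05, and DESeq2 called 4, 1 and 1. Against vehicle the median log2 fold change was 0.22 with R788 + anti-PDL1 and 0.32 with added radiation, close to the 0.28 and 0.27 of the members, and -0.38 between treated groups, where the members had 0.00. The number of fibroblasts and the RNA per fibroblast cannot be told apart in whole tumors.

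The fibroblast genes varied widely between tumors of a group. Their summed level was 3204 to 4066 CPM in vehicle, 3033 to 5683 CPM in R788 + anti-PDL1 and 2755 to 5256 CPM in irradiated tumors, with none of the 12 at 0 in any library. The highest sum was that of R788 + anti-PDL1 replicate 2, in which the median of the 12 genes lay 0.86 above the vehicle mean on the log2 scale, beside -0.28 and 0.10 in the other 2 tumors. The members' own median was also highest in that tumor, at 0.45 beside 0.17 in both others. Without it, the median of the fibroblast list against vehicle was -0.03 and that of the members 0.10, and between treated groups they were 0.28 and 0.19. Among the 36 tested members that tumor held the highest value of all 9 libraries for 6 (Notch1, Notch2, Maml2, Wwtr1, Postn and Thy1). It held the lowest for 1 (Sox9). The part of fibroblast RNA in the members' values was not tested.

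In irradiated tumors, summed levels of fibroblast and cytoskeletal genes were ordered differently. Replicate 1 had the highest value of all 9 libraries for 7 tested members (Vim, S100a4, S100a6, Lgals1, Anxa2, Fap and Cdh11). It also had the lowest summed fibroblast level, 2755 CPM. In that tumor Col1a1 was at 958 CPM, below every vehicle tumor, and Col3a1 at 1434 CPM, above every vehicle tumor. The median of the 12 fibroblast genes lay 0.16 above the vehicle mean there, beside 0.59 and 0.44 in the other 2 irradiated tumors. In vehicle tumors it ran from -0.10 to 0.15. Without replicate 1, the median of the fibroblast list against vehicle was 0.55 and that of the members 0.22. Col1a1 and Col1a2, which encode chains of the same type I collagen, were far apart per kb of exon, and their ratio was highest in vehicle replicate 2 (193) and lowest in R788 + anti-PDL1 replicate 2 (27.6), a pair chosen after its values were seen. Col1a2 was at 43.6, 19.2 and 25.5 CPM in vehicle tumors, 37.7, 194 and 77.9 in R788 + anti-PDL1 tumors and 19.2, 41.6 and 43.0 in irradiated tumors.

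**Figure D4:**
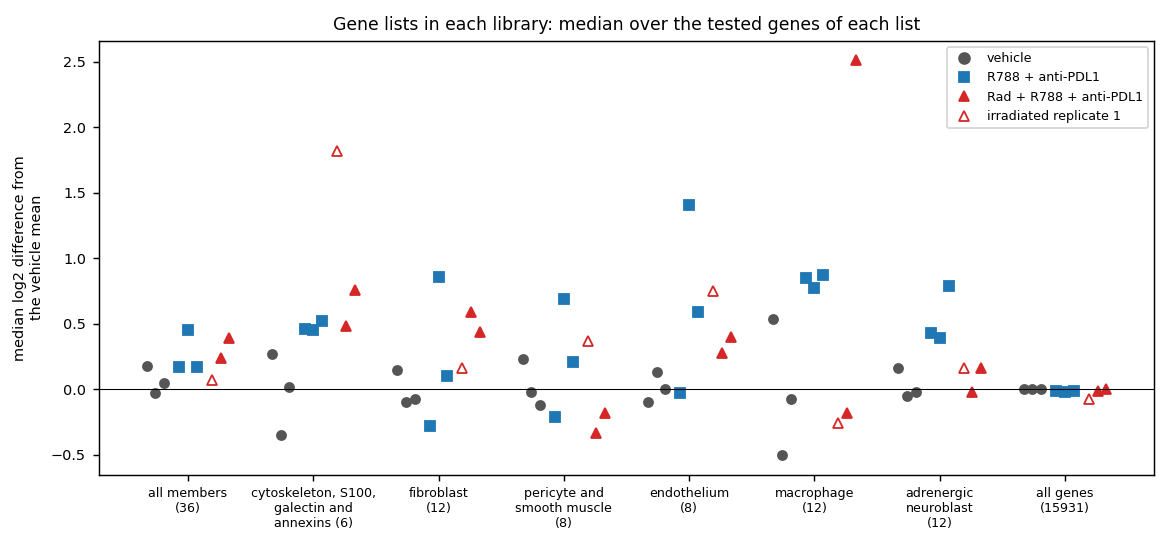
Median log2 difference from the vehicle mean over the tested genes of the members, of their cytoskeletal group, of 5 marker lists and of all genes, with a point per tumor; the open triangle is irradiated replicate 1. R788 + anti-PDL1 replicate 2 is highest of all tumors for the fibroblast list (0.86) and for the members (0.45), irradiated replicate 1 for the cytoskeletal group and irradiated replicate 3 for the macrophage list, while all-gene medians stay between -0.07 and 0.

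Markers of other cell types also differed between tumors. The 12 macrophage genes, led by Lyz2, C1qb and C1qa, had medians of 0.63 and 1.29 against vehicle and 0.55 between treated groups, with 0 called by edgeR, and 1, 4 and 0 at a raw p under 0.05. Their summed level was 331 to 694 CPM in vehicle, 736 to 765 CPM in R788 + anti-PDL1 tumors and 575, 370.4 and 2007 CPM in irradiated replicates 1, 2 and 3. Zeb2 was at 25.2, 19.7 and 49.5 CPM in these irradiated tumors, 44.3 to 45.1 CPM in R788 + anti-PDL1 tumors and 8.76 to 9.38 CPM in vehicle. Endothelial genes (8 of 8 tested, led by Pecam1, Cdh5 and Egfl7) had medians of 0.74, 0.39 and -0.18, with summed levels of 48.6 to 54.7 CPM in vehicle, 54.7 to 137 CPM in R788 + anti-PDL1 and 73.3 to 89.0 CPM in irradiated tumors. Pericyte and smooth muscle genes (8 of 8 tested, led by Des, Cspg4 and Rgs5) had medians of 0.35, -0.09 and -0.15, with sums of 199 to 208 CPM, 147 to 258 CPM and 185 to 275 CPM. edgeR called none of these 16 genes in any comparison, with 7, 4 and 4 at a raw p under 0.05. The part of these cell types in the members' values was not tested.

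Adrenergic neuroblast genes were listed as the counterpart of the mesenchymal-state members, although whole-tumor libraries cannot assign their RNA to the tumor cells. Of 21 such genes 12 were tested, with medians of 0.66, 0.12 and -0.59 and the highest levels for Hand2, Mycn and Tbx2. At a raw p under 0.05 there were 4 higher and 2 lower, 3 higher and 0 lower, and 1 higher and 4 lower. Isl1, a LIM-homeobox factor of sympathetic neurons, was the only one called, and it rose in R788 + anti-PDL1 tumors. It had 0 counts in all 3 vehicle tumors, and was at 3.52, 1.83 and 2.58 CPM in R788 + anti-PDL1 and 1.03, 1.37 and 0.958 CPM in irradiated tumors. Against the level of 3 counts per vehicle library, the mean of R788 + anti-PDL1 tumors was at least 17.1-fold higher (adjusted p = 0.0344 in edgeR) and that of irradiated tumors at least 7.23-fold higher (adjusted p = 0.0605). The Isl1 call was lost under the same omissions and block as that of Cyr61. The 2 genes on the lower side in R788 + anti-PDL1 tumors were Gata3 and Ddc, named after their values were seen. Gata3, the adrenergic factor, was at 11.4, 0.179 and 3.01 CPM in vehicle tumors, 0.661, 0.305 and 0.327 in R788 + anti-PDL1 tumors and 5.89, 6.03 and 6.80 in irradiated tumors. The first 2 groups overlapped, and every irradiated tumor lay above every R788 + anti-PDL1 tumor. Gata3 differed by -3.48 ± 1.08 between R788 + anti-PDL1 and vehicle (adjusted p = 0.227) and by 3.84 ± 1.10 between irradiated and R788 + anti-PDL1 tumors (adjusted p = 0.221). Ddc, which encodes an enzyme of catecholamine synthesis, was at 19.6, 14.3 and 15.8 CPM in vehicle tumors, 7.71, 3.43 and 5.16 in R788 + anti-PDL1 tumors and 13.6, 7.81 and 4.52 in irradiated tumors. All treated tumors lay below all vehicle tumors, with a difference of -1.61 ± 0.44 for R788 + anti-PDL1 (adjusted p = 0.155). Phox2a, Hand1, Dbh, Chga and Six3 stayed at or under 3 counts in every library, and Th at 0.

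Contamination by skin or fat was checked with short lists. Of 6 keratinocyte genes only Krt5 was tested, at 3.05 to 7.50 CPM in vehicle, 1.89 to 63.0 in R788 + anti-PDL1 and 46.5 to 74.9 in irradiated tumors (log2 fold changes 2.53 ± 0.91 and 3.53 ± 0.95, adjusted p = 0.308 and 0.222), and Krt1 stayed at or under 3 counts. Krt14, the partner of Krt5 in basal keratinocytes, was at 0.221 to 2.35 CPM in vehicle and at most 0.101 CPM in treated tumors. Krtdap, another keratinocyte gene, had 54 and 23 counts in R788 + anti-PDL1 replicates 2 and 3, and 0 to 3 counts in each other library. Of 4 adipocyte genes only Fabp4, which endothelium and macrophages also express, was tested, at 10.1 to 42.5 CPM, and Adipoq stayed at or under 3 counts. Of 6 melanocyte genes 3 were tested, led by Mitf, Tyr and Pmel, with medians of 0.25, 0.36 and 0.40. Tyrp1 had 0 counts throughout and Mlana at most 3. edgeR called none of the 5 tested genes of these 3 lists in any comparison, with 1, 2 and 0 at a raw p under 0.05.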

How the data were processed

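Per the labels, RNA of 9 whole tumors was enriched for polyA and sequenced. The submitters' processing notes name STAR 2.6.1d, Salmon 1.4.0, SAMtools 1.9, Picard 2.26 and MultiQC 1.11, and build mm10. The authors deposited whole-number Salmon counts, 1 row for each gene symbol, without normalization. The sources disagreed on the sequencer and on single or paired reads, and strandedness and annotation release were not given in the sources used here. A gene that shares exonic bases with another, true of 4 members on their own strand and 9 on the other, may therefore hold reads of both.

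Groups were taken from the treatment labels. Counts were filtered with filterByExpr (minimum count 10), scaled by TMM and fitted over all 9 libraries with the robust quasi-likelihood F test of edgeR 4.0.16 in R 4.3.3, with a coefficient per group, no covariate, two-sided tests and Benjamini-Hochberg adjustment over 15931 genes. The steps were tested on simulated data. The study used DESeq2, here an alternative (1.42.0), as was limma 3.58.1. CPM values are given by replicate in numerical order, and log2 fold changes as value ± SE with n = 3 per group. Identifiers, coordinates and exon lengths came from GENCODE M21 (GRCm38), promoter sequences from RefSeq (GRCm38.p6). The members, the 8 role lists and the 11 companion lists (fibroblast, pericyte and smooth muscle, endothelium, macrophage, keratinocyte, adipocyte, melanocyte, adrenergic neuroblast, Schwann, YAP and TEAD targets, Notch pathway) were chosen with earlier results of these data known. They are described by counts and medians, without a test of the list. Values in all libraries were given for members called, for members with a raw p under 0.05 and no overlap, and for the most abundant member of each role. Of the companion lists, called genes, genes at or under 3 counts throughout and the 3 most abundant were named, except for items not reported here, and Krt14, Gata3, Ddc, Col1a2 and the collagen ratio were added after their values were seen.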

Additional observations from a re-analysis of the deposited data

How the results depend on the processing

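Zeb2 in R788 + anti-PDL1 tumors was called in 8 of 10 alternatives in which no single library was left out, with adjusted p-values from 1.8e-08 to 0.769 over all alternatives and log2 fold changes from 2.29 to 2.39. It was not called with the replicate number as a block (adjusted p = 0.0667) or without replicates 3 of vehicle and R788 + anti-PDL1 (adjusted p = 0.769), a choice made after seeing the data. In R788 + anti-PDL1 tumors 1 of 36 members was called, beside 0.678% of all genes, the share given in brackets below. DESeq2 and the fit without the low-count filter tested 27965 genes. The count became 5 of 38 with DESeq2 (2.6%) and 19 of 36 with limma-voom quality weights (30.3%). It was 4 of 38 without the filter (0.712%) and 5 of 36 with only the 6 libraries compared (3.84%). With the replicate block, and without both replicates 3, it was 0 (0%). It ranged from 0 to 1 with each library left out (0 to 0.449%). In irradiated tumors against vehicle, 0 of 36 became 8 of 38 with DESeq2 (1.98%) and 15 of 36 with quality weights (12.5%). It was 5 of 38 without the filter (0.25%), and ranged from 0 to 4 with each library left out (0.00601 to 0.343%). Between treated groups 0 of 36 became 6 of 38 with DESeq2 (2.31%) and 15 of 36 with quality weights (19.3%). The median log2 fold change of the members in R788 + anti-PDL1 tumors was 0.11 with quality weights and 0.10 to 0.39 with each library left out. In irradiated tumors it was 0.13 to 0.67 with each library left out. Between treated groups it was 0.18 with quality weights and -0.12 to 0.19 with each library left out. The fibroblast median between treated groups was 0.06 with quality weights and -0.50 to 0.28 with each library left out. Quality weights called 30.3%, 12.5% and 19.3% of all genes in the 3 comparisons, and the causes of these shifts were not tested.

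Over all genes, the calls numbered 108, 7 and 1 as reported, 726, 553 and 646 with DESeq2, 111, 12 and 8 with limma-voom, 4835, 1993 and 3080 with quality weights, 199, 70 and 24 without the filter, 594, 1 and 0 with only the 6 libraries compared, and 0, 0 and 0 without both replicates 3. With each library left out they ranged from 0 to 75, 1 to 57 and 0 to 21. All 35 differences of members given with a raw p under 0.05 and no overlap kept their direction in every alternative that gave a value, and DESeq2 called 19 of them. Upper-quartile scaling put the median of all genes at 0.11 in irradiated tumors against vehicle, where the members' median was then 0.33.

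Correlations of deviations from the group means in the 9 same-number pairs ran from -0.05 to 0.23, and 2 exceeded 0.1. Both were between vehicle and irradiated tumors, at 0.23 for replicates 1 and 0.19 for replicates 2. Vehicle replicate 2 and irradiated replicate 3, of unlike number, were at 0.12. With 3 tumors per group, such correlations cannot settle whether tumors of a number shared a day or batch. The best match of a library in another group had the same number in 6 of 18 cases. With the replicate block, 0 members were called in all 3 comparisons and 0, 3 and 0 genes over all.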
